A study of Mus musculus with 9 samples.

Results

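The genes described here encode the receptors with which platelets hold on to a damaged vessel wall and to each other: Itga2b and Itgb3 (integrin αIIb and β3), Gp1ba, Gp1bb, Gp5 and Gp9 (the GPIb-IX-V complex), Gp6 (GPVI), Clec1b (CLEC-2), the tetraspanin gene Cd9 and Pear1. They were chosen by name, as rows of the count table whose gene identifier maps to one of these symbols, and 10 of the 35275 rows met the rule. Transcripts were measured by bulk RNA-seq in mouse bone marrow MEPs (the Lin-ckit+CD34-FcγRII/IIIlo gate, which holds progenitors of megakaryocytes and of erythroid cells), with 25000 sorted cells per library. HS3A8-high and HS3A8-low MEPs bound more or less of HS3A8, an scFv against heparan sulfate (HS). The study's sorting scheme split the MEPs at the middle of their HS3A8 binding, so the fractions are not its extremes. The third group, the control, represents total MEPs, mock-sorted on MPB49, which is an scFv without HS binding. Each group had 3 libraries, no group carried a gene deletion or drug treatment by its labels, and the study asked whether HS3A8 binding divides MEPs into megakaryocytic and erythroid subsets. The study's methods name C57Bl/6 wild-type mice without tying them to these libraries, and the labels give neither strain nor age. A figure legend of the study gives 3 individual mice while the labels do not say so, so p-values measure only the spread between these libraries.

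In platelets, the GPIb-IX-V complex catches von Willebrand factor and slows the cell, GPVI and CLEC-2 then signal through ITAM and hemITAM motifs after binding collagen and podoplanin, and integrin αIIbβ3, once activated from inside the cell, binds fibrinogen and joins platelets to each other. Itga2b (CD41) is switched on early in the megakaryocyte lineage and is also found on multipotent progenitors, whereas the GPIb-IX-V genes are classed as late genes of maturing megakaryocytes. By that textbook division Itga2b, Itgb3 and Cd9 were taken as early genes, Gp1ba, Gp1bb, Gp5, Gp9 and Gp6 as late genes, and Clec1b and Pear1 were left unplaced.

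All the members are protein-coding genes of GRCm38 (mm10). Gp1ba (ENSMUSG00000050675, chr11:70639122-70642036, plus strand), Itga2b (ENSMUSG00000034664, chr11:102453297-102470122, minus strand) and Itgb3 (ENSMUSG00000020689, chr11:104608000-104670476, plus strand) lie on chromosome 11. On chromosome 6 are Gp9 (ENSMUSG00000030054, chr6:87778072-87779768, plus strand), Cd9 (ENSMUSG00000030342, chr6:125460266-125494791, minus strand) and Clec1b (ENSMUSG00000030159, chr6:129397297-129409335, plus strand). Chromosome 16 holds Gp1bb (ENSMUSG00000050761, chr16:18620317-18622403, minus strand) and Gp5 (ENSMUSG00000047953, chr16:30307685-30310779, minus strand), and Gp6 (ENSMUSG00000078810, chr7:4363965-4397744, minus strand) and Pear1 (ENSMUSG00000028073, chr3:87747890-87824306, minus strand) lie elsewhere. Annotated exons of Sept5 and Gm49601 on the same strand cover 92.9% of the exon bases of Gp1bb, so its count is uncertain however reads were assigned to shared bases. Other overlaps were smaller, at 10.7% for Cd9 (Gm26728, opposite strand), 4.73% for Pear1 (Lrrc71) and 3.61% for Clec1b (Clec9a), and the other 6 members shared no exon base with another gene.

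RefSeq promoters of GRCm38.p6 were found for 9 of the 10 members, all but Itgb3. In the 250 bases before each start, GATA words (AGATAA or TGATAA) and ETS words (AGGAAG or CGGAAG), both bound by factors that work in megakaryocytes, were searched on both strands. The 110 bases just before the start are shown for Itga2b, which differed between the fractions, and for the GPIb-IX-V genes Gp9, Gp1ba and Gp5, of which the last 2 did not differ detectably. Capitals mark these words on either strand.
Itga2b, chr11:102469884-102469993, minus strand: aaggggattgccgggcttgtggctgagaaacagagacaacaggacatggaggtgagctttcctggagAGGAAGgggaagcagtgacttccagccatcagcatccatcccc
Gp9, chr6:87777960-87778069, plus strand: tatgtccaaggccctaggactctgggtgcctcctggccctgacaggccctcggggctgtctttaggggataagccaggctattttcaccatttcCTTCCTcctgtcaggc
Gp1ba, chr11:70639012-70639121, plus strand: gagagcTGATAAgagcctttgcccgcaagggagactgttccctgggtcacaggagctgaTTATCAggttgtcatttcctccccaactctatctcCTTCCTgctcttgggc
Gp5, chr16:30310782-30310891, minus strand: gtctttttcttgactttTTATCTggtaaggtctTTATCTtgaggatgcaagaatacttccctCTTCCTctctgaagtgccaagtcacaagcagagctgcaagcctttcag
Gp1ba held GATA words starting at -104 and -51 and an ETS word at -16, and Gp5 held GATA words at -93 and -77 and an ETS word at -48, positions being counted back from the RefSeq start. Gp9 had an ETS word at -16, and Itga2b had ETS words at -43 and, before the bases shown, at -125, and neither had a GATA word. Of the promoters not shown, those of Gp6 and Clec1b held a GATA word and no ETS word. Those of Cd9, Gp1bb and Pear1 held ETS words and no GATA word. Of 32851 RefSeq promoters, 16.6% held a GATA word, 39.2% an ETS word and 5.49% both, so a match is a description of these letters only.

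The study also measured Itga2b and Itgb3 by qRT-PCR, which was not analysed here, and its primers show where on each transcript that assay read. The capitals mark the bases of the Itga2b reverse primer that lie in exon 2, with the rest in exon 1.
Itga2b forward: ttcttgggtcctagtgctgtt
Itga2b reverse: CGcttccatgtttgtccttatga
Itgb3 forward: ccacacgaggcgtgaactc
Itgb3 reverse: cttcaggttacatcggggtga
For Itga2b the forward primer matched chr11:102469635-102469655 and the reverse primer chr11:102469525-102469545 in exon 1 and chr11:102467900-102467901 in exon 2, an amplicon of 133 bp near the 5′ end of a transcript of 30 exons. The Itgb3 primers matched exon 2 (chr11:104623426-104623444) and exon 3 (chr11:104632189-104632209), an amplicon of 107 bp in a transcript of 15 exons. The RNA-seq counts below cover all exons of each gene.

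Library totals ran from 11781637 to 15850037 counts, with 13936 to 15659 genes detected per library. A gene with 0 counts may still have up to 3, equal to 0.189 to 0.255 CPM (read counts scaled to library size) before TMM factors. The levels given here are CPM with TMM factors over all 9 libraries. Markers of the gate were as labelled in part. Of the FcγRII/III genes, which the gate holds low, Fcgr3 stood at 17.8 CPM in HS3A8-high replicate 3 and 43.6 in HS3A8-low replicate 3. All other libraries had 2.26 CPM or less. Fcgr2b stood at 7.80 and 18.5 CPM in the same libraries, against 2.95 or less elsewhere. Kit, a gate marker, ran from 379.7 to 806.7 CPM, while Cd34, which the gate leaves out, ran from 0.84 to 10.98 CPM in the HS3A8-high libraries, 28.3 to 73.2 in those of HS3A8-low and 14.7 to 42.5 in the controls. Control replicate 1 stood apart, its counts giving a chi-square of 196 and 149.8 per degree of freedom against the other controls, which gave 9.61 between them. Replicate 3 of both HS3A8 fractions held the most granulocyte-monocyte marker RNA, 2050 CPM summed over 18 genes for HS3A8-high and 5222 for HS3A8-low, against 231 or less in the control.

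Both subunit genes of the fibrinogen receptor were low in HS3A8-high MEPs. Itga2b stood at 8.07, 4.35 and 5.09 CPM in the HS3A8-high libraries, at 126, 83.4 and 67.0 in HS3A8-low and at 71.1, 44.8 and 48.3 in the control (replicates 1, 2 and 3 in each group). The highest HS3A8-high library lay far below the lowest of either other group, and the ranges of HS3A8-low and the control met. Itgb3 had 0.318, 0 and 2.84 CPM in HS3A8-high, against 19.8, 12.9 and 14.9 in HS3A8-low and 3.79, 5.51 and 4.56 in the control. Its groups did not overlap in any of the 3 comparisons, and most of the HS3A8-high count came from replicate 3, which had 43 of 48 reads. The control mean of Itgb3 was 4.62 ± 0.863 CPM (SD, n = 3) against 15.9 ± 3.53 in HS3A8-low, and that of Itga2b 54.7 ± 14.3 against 92.2 ± 30.5.

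**Figure D1:**
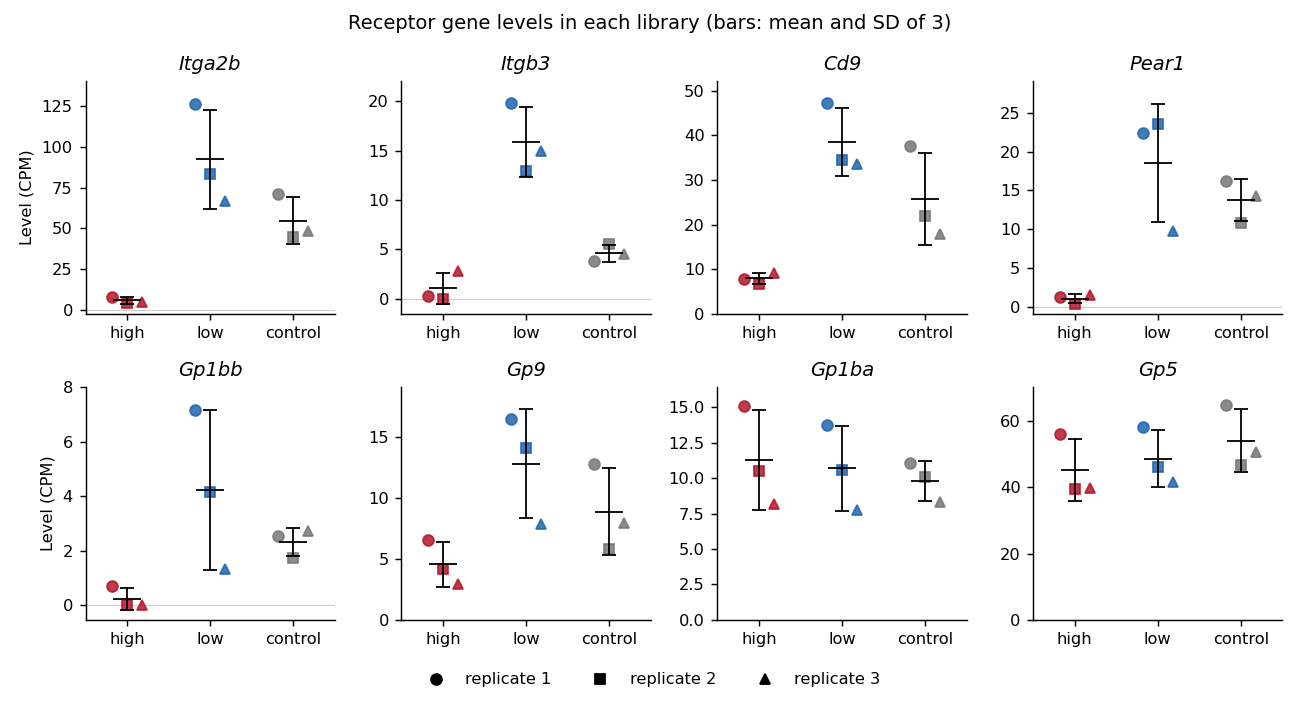
Levels of the 8 receptor genes that passed the count filter, in CPM (y axis, starting at or just below 0), for HS3A8-high, HS3A8-low and MPB49 control MEPs (x axis). Each symbol is a library, with its shape giving the replicate number, and the black bars give the mean and SD of 3 libraries. Itga2b, Itgb3, Cd9, Pear1, Gp1bb and Gp9 sit lower in every HS3A8-high library than in every HS3A8-low library, while Gp1ba and Gp5 overlap in all 3 groups.

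Cd9 and Pear1 showed the same order of groups. Cd9, a tetraspanin that associates with αIIbβ3 in the platelet membrane, had 7.88, 6.64 and 9.19 CPM for HS3A8-high, 47.2, 34.5 and 33.6 for HS3A8-low and 37.5, 21.9 and 17.96 for the control. HS3A8-high lay below both other groups without overlap, and HS3A8-low overlapped the control through control replicate 1. Pear1, a receptor that sustains αIIbβ3 activation on platelet contact, had 1.34, 0.458 and 1.52 CPM in the HS3A8-high libraries, 22.3, 23.5 and 9.76 in those of HS3A8-low and 16.2, 10.8 and 14.3 in the controls. Here too every HS3A8-high library was the lowest, and the lowest HS3A8-low library, replicate 3, fell below all 3 controls.

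The GPIb-IX-V genes did not move as a unit. Gp1ba, which encodes the subunit that binds von Willebrand factor, had 15.1, 10.5 and 8.20 CPM in HS3A8-high, against 13.7, 10.6 and 7.76 in HS3A8-low and 11.1, 10.1 and 8.32 in the control. Gp5, whose product associates loosely with the rest of the complex, had 56.0, 39.6 and 39.9 CPM for HS3A8-high, 58.2, 46.2 and 41.5 for HS3A8-low and 64.8, 46.7 and 50.7 for the control. All 3 groups overlapped for both genes, and replicate 1 was the highest library of every group. Gp9, whose product is needed for the complex to reach the surface, had 6.55, 4.20 and 2.91 CPM in the HS3A8-high libraries, 16.5, 14.1 and 7.84 in those of HS3A8-low and 12.8, 5.83 and 7.95 in the controls. Its HS3A8-high range lay wholly below HS3A8-low and ran into the control range. Gp1bb, the subunit disulfide-linked to GPIbα, had 11, 0 and 0 counts in HS3A8-high, against 122, 59 and 16 in HS3A8-low and 28, 27 and 37 in the control. Replicate 3 of HS3A8-low was therefore below every control, though above every HS3A8-high library, and Sept5, which shares its exons, had totals of 1, 8 and 7 counts over the HS3A8-high, HS3A8-low and control libraries.

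The receptors for collagen and podoplanin were at or near the limit of detection. Gp6 had 4 counts in HS3A8-low replicate 1, 1 in control replicate 2 and 0 in the other 7 libraries. Clec1b had 9, 2 and 2 counts in HS3A8-low, 2 counts in HS3A8-high replicate 3 and in control replicate 2, and 0 in the other 4 libraries. Neither gene passed the count filter, and no difference was detectable at this depth, with 0 counts allowing up to 0.255 CPM before TMM factors in the shallowest library. The remaining 8 members passed it and are the ones tested below.

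Because the members differ in length, their levels were set side by side as CPM per kb of annotated exon. Only 149 of the 2087 exon bases of Gp1bb are shared with no other gene, so its place in these orders is uncertain. In HS3A8-high the order was Gp5 (20.6 ± 4.28, SD, n = 3), Gp9 (5.17 ± 2.09), Gp1ba (4.15 ± 1.30), Cd9 (3.87 ± 0.624), Itga2b (1.07 ± 0.361), then Itgb3, Pear1 and Gp1bb at 0.112 to 0.179. Gp5 stood clear of all others there, the ranges of Gp9, Gp1ba and Cd9 overlapped, and Itga2b stood clear on both sides. In HS3A8-low, Gp5 (22.1 ± 3.92 CPM per kb), Cd9 (18.8 ± 3.72), Itga2b (16.9 ± 5.60) and Gp9 (14.5 ± 5.07) overlapped their neighbours, followed after a gap by Gp1ba (3.94 ± 1.10), Pear1 (2.73 ± 1.12), Itgb3 (2.69 ± 0.598) and Gp1bb (2.03 ± 1.40). In the control, Gp5 (24.6 ± 4.33 CPM per kb) again stood clear of Cd9 (12.6 ± 5.06), Gp9 (10.1 ± 4.06) and Itga2b (10.03 ± 2.62), and Itgb3 (0.783 ± 0.146) was below Gp1bb (1.11 ± 0.252) without a gap. The α subunit gene of the fibrinogen receptor thus had a higher level per kb than the β subunit gene in every library. With the longest transcript as the length, the mean levels of Cd9 (31.3) and Itga2b (26.8) passed that of Gp5 (22.1) in HS3A8-low, and Gp5 remained the highest in the other groups.

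**Figure D2:**
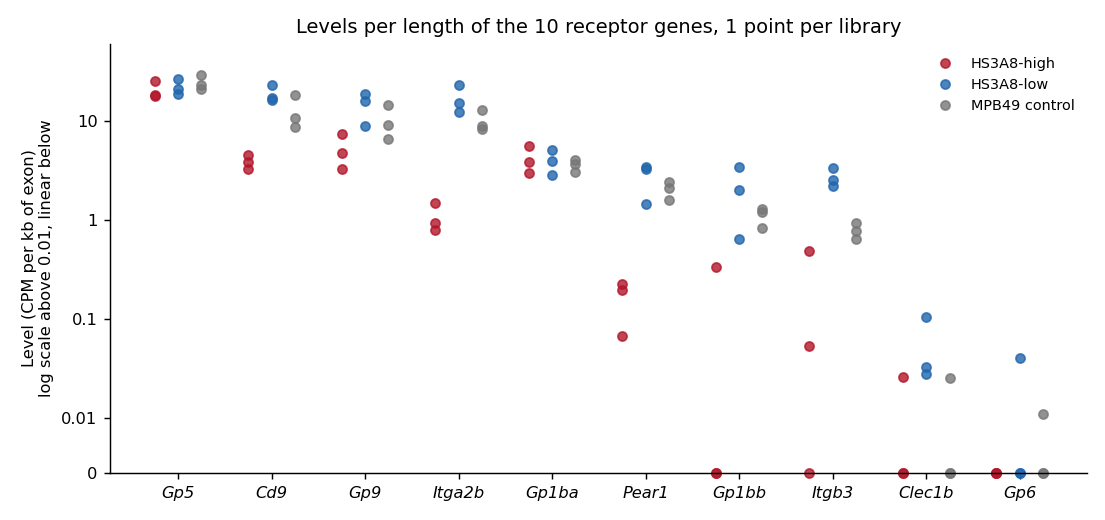
Levels of all 10 receptor genes in CPM per kb of exon (y axis, logarithmic above 0.01 and linear below), 1 point per library, ordered from high to low level and coloured by group. Gp5 lies between 18.03 and 29.5 in every library, Itga2b between 0.798 and 1.48 in HS3A8-high but between 8.21 and 23.1 elsewhere, and Clec1b and Gp6 stay at or under 0.104.

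In the comparison of HS3A8-high with HS3A8-low, 6 of the 8 tested members were lower in HS3A8-high in every library, where 15.7% of the 11791 genes tested had that pattern. The edgeR quasi-likelihood test (Benjamini-Hochberg over all genes, adjusted p under 0.05) called 3 members, all lower in HS3A8-high, where 3.21% of genes were called in that direction. Itga2b differed by a log2 fold change of -4.01 (95% interval -4.81 to -3.21, standard error 0.338, edgeR adjusted p = 0.00712), which is 16.1-fold. Pear1 differed by -4.08 (interval -5.36 to -2.79, edgeR adjusted p = 0.0196) and Cd9 by -2.32 (interval -2.83 to -1.81, edgeR adjusted p = 0.00712). Itgb3 (-3.92, interval -6.52 to -1.33, edgeR adjusted p = 0.106), Gp1bb (-4.12, interval -7.11 to -1.13, 0.131) and Gp9 (-1.53, interval -2.48 to -0.57, 0.0925) missed the threshold, with wide intervals for the 2 genes that have libraries at 0. The labels do not say what the replicate number marks, and a pairing of HS3A8-high with HS3A8-low libraries by number is inferred only from these same data. With that number as a block, the test called 6 members, where 8.27% of genes were called lower in HS3A8-high. The added members were Itgb3 (-4.39, blocked edgeR adjusted p = 0.0316), Gp1bb (-4.56, 0.0274) and Gp9 (-1.53, 0.0138).

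Gp1ba and Gp5 showed no detectable difference between the fractions, with intervals that bound its size. Gp1ba had a log2 fold change of 0.04 (interval -0.71 to 0.79, edgeR adjusted p = 0.961), so a level up to 1.64-fold higher in HS3A8-low is within the interval. Gp5 had -0.14 (interval -0.60 to 0.31, edgeR adjusted p = 0.737), with 1.52-fold as the upper bound of HS3A8-low over HS3A8-high. Both bounds lie below the lower bound for Itga2b, 9.25-fold.

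Calls depended on single libraries. Without HS3A8-low replicate 2 edgeR called 0 members and 0 genes (6 members and 1900 genes had an unadjusted p under 0.05), with an adjusted p of 0.0685 for Itga2b and Cd9. Leaving out HS3A8-high replicate 1 or 2 or HS3A8-low replicate 1 kept Itga2b and Cd9 and lost Pear1, and the count over all genes fell from 451 to 42, 53 and 56. Without HS3A8-low replicate 3 it fell to 244 with the same members called. Itgb3 went to -6.51 without HS3A8-high replicate 3 and was then called (edgeR adjusted p = 0.013). Gp1bb went to -8.94 without HS3A8-high replicate 1 (edgeR adjusted p = 0.109), a fitted value that is no bound, since the remaining HS3A8-high libraries were at 0. Without replicate 3 of both groups, the libraries with granulocyte-monocyte RNA, 5 members were called, with Itgb3 and Gp9 added, where 6.01% of genes were called lower in HS3A8-high. DESeq2 called 5 members (7.57% of genes lower in HS3A8-high) and voom with sample quality weights 6 (9.02%).

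**Figure D3:**
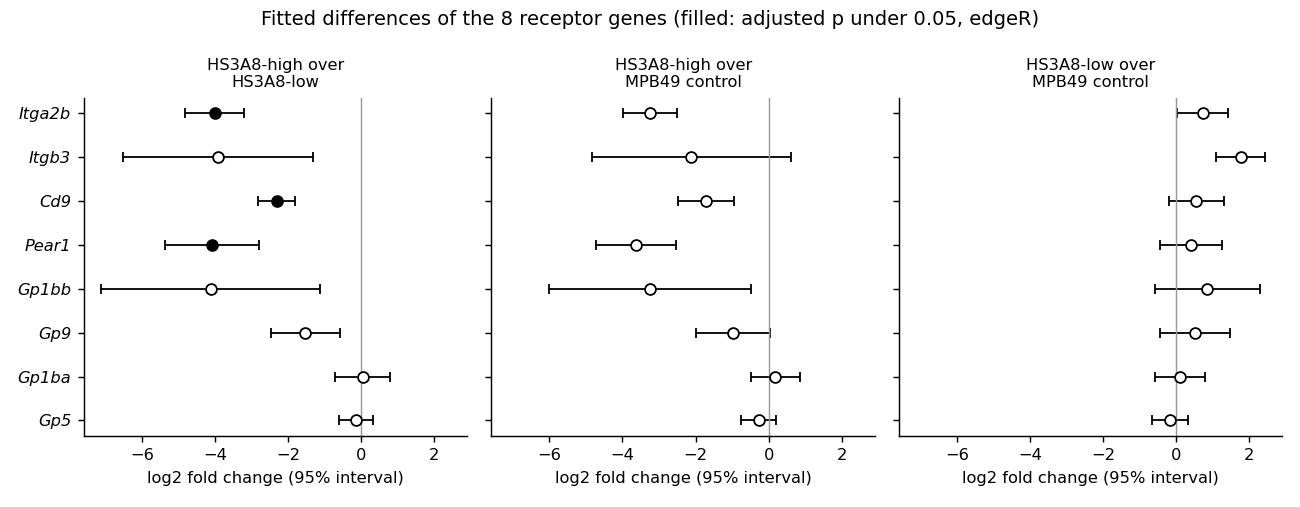
Log2 fold changes of the 8 tested receptor genes (x axis) with 95% intervals in the 3 comparisons, filled where the edgeR adjusted p was under 0.05. In HS3A8-high over HS3A8-low, Itga2b, Cd9 and Pear1 are filled, Gp1ba and Gp5 lie at 0.04 and -0.14, and in the other panels no point is filled.

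Against the MPB49 control, HS3A8-high again had the lower levels of the same genes, without a call in the main test. In the edgeR test, 0 of 8 members passed the threshold, where 0.0174% of 11486 genes did, and 4 members had an unadjusted p under 0.05. The log2 fold change of HS3A8-high over the control was -3.24 for Itga2b (interval -3.98 to -2.51, edgeR adjusted p = 0.0581), -3.63 for Pear1 (interval -4.73 to -2.53, 0.118) and -1.72 for Cd9 (interval -2.48 to -0.96, 0.282). DESeq2 called these 3 (1.2% of genes) and voom called them and Gp1bb (0.871% of genes), and with all 9 libraries in 1 edgeR fit Itga2b and Pear1 passed (0.264% of genes). Without control replicate 1, which stood apart, Itga2b passed the edgeR threshold (0.0424% of genes). There was no overlap of libraries for 5 members, all lower in HS3A8-high, against 7.19% of genes. Gp1ba (0.18, interval -0.49 to 0.86) and Gp5 (-0.28, interval -0.76 to 0.20) had edgeR adjusted p-values of 0.802 and 0.733.

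Between HS3A8-low and the control, members had log2 fold changes from -0.18 to 1.76. In the edgeR test 0 of 8 members passed, as did 0% of 11878 genes, with 673 genes and 2 members at an unadjusted p under 0.05 (562 genes for HS3A8-high against the control). Those members were Itgb3, 1.76 higher in HS3A8-low on the log2 scale (interval 1.10 to 2.43, edgeR adjusted p = 0.488), and Itga2b, 0.73 higher (interval 0.03 to 1.42, 0.84). Itgb3 was the only member whose libraries did not overlap, a pattern of 7.91% of genes, and the only one DESeq2 called (adjusted p = 3.24e-05, with 0.791% of genes called). Voom called Itgb3, Itga2b and Cd9, and 2.42% of genes. The 3 comparisons share their libraries pairwise, so they are not independent of each other.

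Ratios within a library do not depend on the scaling between libraries. The ratio of Gp5 to Itga2b per kb was 17.2, 22.6 and 19.4 for HS3A8-high, 1.15, 1.37 and 1.54 for HS3A8-low and 2.26, 2.59 and 2.61 for the control. Every HS3A8-high library lay above the rest, and every HS3A8-low library below every control. HS3A8-high exceeded HS3A8-low by 3.87 on the log2 scale (exact two-sided permutation p = 0.1, the smallest that 3 against 3 libraries allow, and 0.177 after Benjamini-Hochberg adjustment over 23 ratio tests). Within the GPIb-IX-V complex, Gp1ba over Gp5 overlapped between all groups, with means of 0.2 ± 0.0292 (SD, n = 3) in the HS3A8-high libraries, 0.176 ± 0.0216 in those of HS3A8-low and 0.148 ± 0.0225 in the controls. Gp9 over Gp5 was 0.292, 0.264 and 0.182 in HS3A8-high against 0.707, 0.76 and 0.471 in HS3A8-low, without overlap (log2 difference -1.39, exact permutation p = 0.1). The ratio of Pear1 to Itga2b overlapped between all groups, at 0.153 ± 0.0796 (SD, n = 3) in HS3A8-high, against 0.162 ± 0.0571 in HS3A8-low and 0.205 ± 0.0288 in the control.

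**Figure D4:**
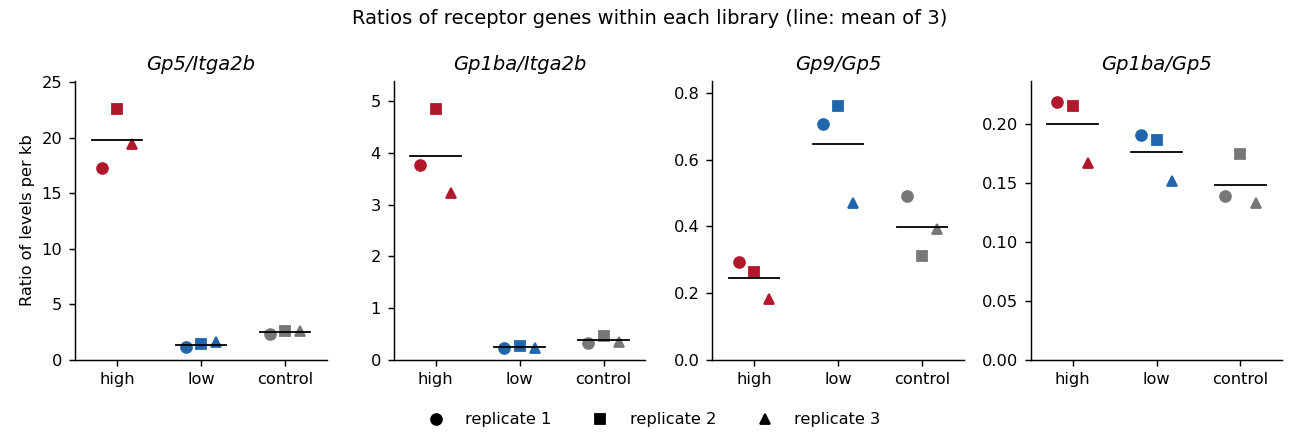
Ratios of levels per kb of pairs of receptor genes (y axes, starting at 0) within each library, by group (x axes), with the mean of 3 libraries as a line and the replicate number as the symbol's shape. Gp5/Itga2b is 17.2 to 22.6 in HS3A8-high and at most 2.61 elsewhere, Gp9/Gp5 is lower in HS3A8-high than in HS3A8-low, and Gp1ba/Gp5 overlaps in all groups.

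Across the 9 libraries, which share their groups and scaling, log2 CPM of Itga2b went with that of Pear1 (r = 0.974), Cd9 (0.97), Gp1bb (0.943), Gp9 (0.871) and Itgb3 (0.854), and less with Gp5 (0.489) and Gp1ba (0.0101). Gp5 had its highest r with Gp9 (0.691), Gp1bb (0.652) and Gp1ba (0.633). Among the 9331 genes that averaged 5 CPM or more, those most like Itga2b included Slc18a2 (r = 0.986 over 9 libraries), Dok2 (0.986), Tek (0.984) and Fgf3 (0.981), and all 4 were lowest in HS3A8-high on average. Those most like Gp5 were Tgtp1 (0.983), Fgfbp3 (0.929), Fam208b (0.929), Atp10d (0.918) and Cutc (0.909), and on average all 5 were highest in the control. These are descriptions over libraries that differ by group.

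Genes of related lists were counted in the same comparison of HS3A8-high with HS3A8-low, where edgeR called 3.21% of all genes tested lower in HS3A8-high. Early and late members had median log2 fold changes of -3.92 (3 tested) and -0.83 (4 tested), beside -0.03 for all genes. Among other genes classed as late in megakaryocytes, 8 of 16 tested fell in HS3A8-high and none rose by the edgeR test, with a median of -2.74. They included Pf4, a chemokine of α-granules (HS3A8-high 3.33 CPM, HS3A8-low 63.8 CPM, log2 fold change -4.29, edgeR adjusted p = 0.00712), and Plek, a protein kinase C substrate (-4.05, adjusted p = 0.0253). The thrombin receptor subunit gene F2rl2 fell by 6.17 on the log2 scale (edgeR adjusted p = 0.0303). It averaged 0.106 CPM in HS3A8-high, under the limit for 0 counts, against 8.45 in HS3A8-low, so the fitted value is no bound. The ATP-gated channel gene P2rx1 was at 0 in every HS3A8-high library and had 333 counts over HS3A8-low. That is at least 113-fold higher in HS3A8-low, against a limit of 3 counts over the HS3A8-high group. Of the early megakaryocyte genes, mainly transcription factors, 4 of 12 tested fell and none rose, with a median of -0.87: Erg (-3.67), Meis1 (-3.33), Fli1 (-2.19) and Mef2c (-1.79), with edgeR adjusted p-values of 0.0128 to 0.0434. Without replicate 3 of both groups, 9 late and 5 early genes were called, all lower in HS3A8-high, as were 6.01% of all genes tested.

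Of other platelet surface adhesion molecules, edgeR called 7 of 20 tested lower in HS3A8-high and none higher, where 3.21% of all genes were called lower. Their median was -0.66. F11r, the junctional adhesion molecule JAM-A, fell by 5.69 on the log2 scale (edgeR adjusted p = 0.0323). It averaged 0.0848 CPM in HS3A8-high, under the limit for 0 counts, against 4.92 in HS3A8-low, so the fitted value is no bound. Treml1, a receptor of α-granules, fell by 2.97 (edgeR adjusted p = 0.0196), and Pecam1 by 2.09 (0.0165). Smaller differences were called for Cd63 (-1.28), Adgrg1 (-1.02), Cd84 (-0.91) and Tspan32 (-0.45), with edgeR adjusted p-values of 0.0283 to 0.0463. The β1 integrin gene Itgb1, at 317 and 297 CPM, had a log2 fold change of 0.06.

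Genes whose products act on the receptors from inside the cell were counted by their role. Of all genes tested, 3.21% were called lower in HS3A8-high by edgeR and 8.27% in the blocked fit. Of those that activate integrins or anchor them to actin, 1 of 17 tested was called in the edgeR test, Zyx (zyxin, -2.18, adjusted p = 0.0251), and 5 in the blocked fit, with a median of -0.15. Tln1 (talin, 377 and 396 CPM) and Fermt3 (kindlin-3, 601 and 661 CPM), both needed to activate αIIbβ3, had log2 fold changes of -0.11 and -0.17. Besides Zyx, the blocked edgeR fit called Rasgrp2 (-2.76, adjusted p = 0.0223), Rasa3 (-0.79, 0.00857), Vasp (-0.62, 0.0249) and Rap1b (-0.45, 0.0295). None of these passed without the block. ITAM and hemITAM signalling genes had 6 of 20 tested lower in HS3A8-high by the edgeR test and 11 in the blocked fit, none higher in either, and a median of -0.71. The adaptor genes Lat (2.9 and 22.6 CPM, -2.99, edgeR adjusted p = 0.00712) and Lcp2 (SLP-76, -2.41, 0.0329) had the largest of the called differences, followed by Plcg2 (-1.46), Tec (-1.42), Lyn (-0.78) and Vav1 (-0.52). Fcer1g, the signalling partner of GPVI, averaged 10.8 ± 17.01 CPM (SD, n = 3) in HS3A8-high against 45.4 ± 46.6 for HS3A8-low. Its control mean, 8.5 ± 2.8 CPM, was below both. Each fraction's SD exceeded its mean, so the libraries of a fraction lay far apart. Whether the granulocyte-monocyte RNA of replicate 3 accounts for these values was not tested. Only the blocked edgeR fit called Fcer1g (log2 fold change -2.95, adjusted p = 0.0223, against 0.45 without the block). The list of ligands held 12 genes, among them Fcer1a, a basophil and mast cell marker that is not a ligand and did not pass the count filter. Of the 12, 5 were at 0 in every library, fibrinogen chains and podoplanin among them. The count filter passed 4, and edgeR called 0 of these (1 when blocked, and 2 had an unadjusted p under 0.05). Vwf, at 15.4 ± 3.92 CPM in HS3A8-high against 32.8 ± 20.8 for HS3A8-low, had an edgeR adjusted p of 0.25 (log2 fold change -1.13). Col1a2, a chain of type I collagen, had a log2 fold change of -2.17 (edgeR adjusted p = 0.138, and 0.0333 in the blocked fit).

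**Figure D5:**
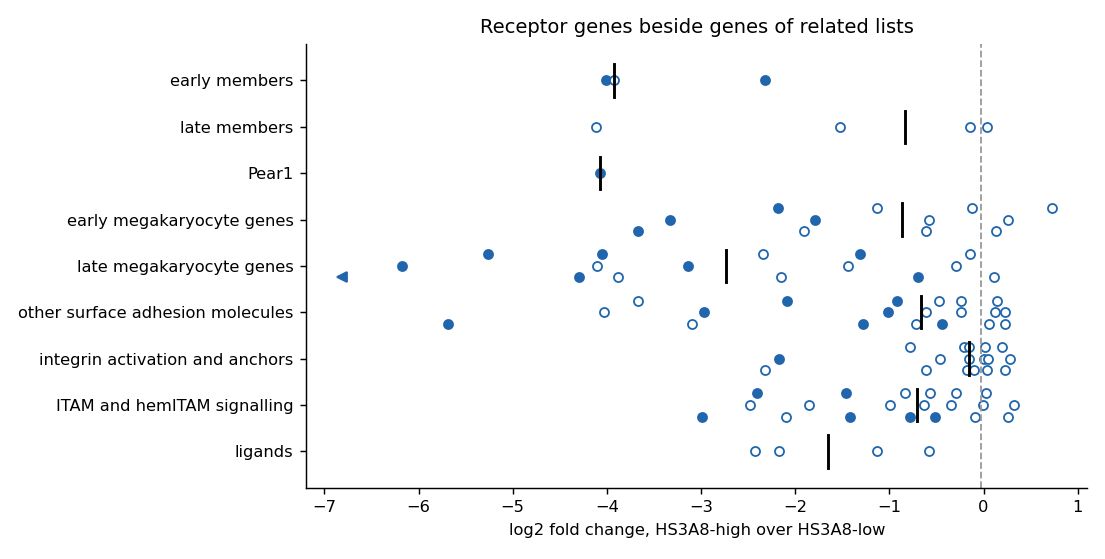
Log2 fold changes of HS3A8-high over HS3A8-low (x axis) for the tested receptor genes and for the genes of related lists, 1 point per gene, filled where the edgeR adjusted p was under 0.05, with the list's median as a black bar and the median of all genes (-0.03) dashed. The triangle is P2rx1 at its bound of -6.82. The late receptor genes spread from -4.12 to 0.04, while integrin activation genes centre on -0.15 and late megakaryocyte genes on -2.74.

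Markers of other cell types were counted too, and not all went in the direction of the receptors. Stem and progenitor and T and NK cell markers were lower in HS3A8-high in sum, and erythroid markers were higher. Of all genes tested, edgeR called 3.21% lower in HS3A8-high, 8.27% when blocked and 6.01% without replicate 3 of both groups. Summed over 14 stem and multipotent progenitor markers, levels were 65.3 to 87.4 CPM for HS3A8-high, 332 to 354 for HS3A8-low and 212 to 230 for the control, and 5 of 12 tested were called lower in HS3A8-high by edgeR (9 when blocked), with Mycn (-4.74) and Sox4 (-2.48) among them. Over 10 T and NK cell markers the sums were 4.66 to 38.2, 199 to 251 and 57.2 to 118 CPM, with 3 of 10 called by edgeR (5 when blocked, 9 without replicate 3 of both groups), Tcf7 (-6.39) and Trbc1 (-5.79) among them, while Cd3e stayed at or under 1.7 CPM in every library. Sums of 18 granulocyte-monocyte markers lay between 14.2 and 2050 CPM for HS3A8-high and between 175 and 5222 for HS3A8-low, and those of 18 erythroid markers between 17810 and 18600 and between 13690 and 15080. By edgeR 0 of 14 granulocyte-monocyte markers were called (9 in the blocked fit, all lower in HS3A8-high), 1 of 6 basophil and mast cell markers (Srgn, -0.80, 2 when blocked), 0 of 4 B cell markers (2 when blocked) and 1 of 8 gate markers (Ptprc, -1.17, 5 when blocked). Of the erythroid markers 1 of 18 was called higher in HS3A8-high (Car1, 0.36), and 6 in the blocked fit, where 0.611% and 3.32% of all genes were called in that direction. The part of these cells in the receptor genes' values was not tested, and in such bulk libraries fewer cells that express a gene and less of its RNA per cell cannot be told apart.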

How the data were processed

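In all, 9 libraries of mouse MEPs were analysed, 3 per group, from the table of counts per gene that the authors deposited, whole numbers without normalization. Per the study's methods, low-input libraries were sequenced on an Illumina HiSeq and reads were mapped to the mm10 transcriptome, and the submitters' processing notes name STAR 2.5 and HTSeq 0.6.1. The strand setting and the rule for shared bases are not given in the sources used here. Gene identifiers were joined to GENCODE M21 (GRCm38), with 34490 of 35275 matched.

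Counts were tested in R 4.3.3 with the quasi-likelihood test of edgeR 4.0.16 (TMM, filterByExpr, Benjamini-Hochberg over all genes tested, adjusted p under 0.05, only the 2 groups compared in a fit), which filters 2 of the 10 members. The study's methods name DESeq2, without a design formula. Standard errors are the absolute log2 fold change divided by the square root of the test's F statistic. Intervals are 95%, from these and the t quantile of the test, and are approximate for genes with libraries at 0. Levels are CPM with TMM factors over 9 libraries, divided by the union of exons for levels per kb. Alternatives were DESeq2 1.42.0, its size factors, voom with quality weights (limma 3.58.1), other filters and thresholds, all 9 libraries in 1 fit, the replicate block and each library left out, and, chosen after seeing the data, both replicates 3 left out. Tests were tried on simulated counts.

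Replicate numbers were checked for pairing over 12108 genes. Each HS3A8-high library's departures from its group's average went with those of the HS3A8-low library that carries its number (r = 0.492, 0.325 and 0.509) and with those of the other numbers at r between -0.469 and 0.122. The labels do not say what the number marks. Lists were the early and late megakaryocyte genes, other adhesion molecules, integrin activation, ITAM signalling, ligands and markers of the gate and 6 cell types. The members and lists were chosen with earlier results of these data known. Named list genes are up to 6 called genes with the largest change in each list, or the 2 of lowest p, and others named were chosen after their values were seen. Values of 1 gene like Itga2b are not reported here. Limits for genes at 0 counts cover counting error only.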

Additional observations from a re-analysis of the deposited data

How the results depend on the processing

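The members' fold changes in HS3A8-high against HS3A8-low kept their direction in every alternative run for Itga2b, Itgb3, Cd9, Gp1bb, Gp9 and Pear1, while the near-zero ones crossed 0. Gp1ba went from 0.04 to -0.0396 with voom and from -0.23 to 0.28 with single libraries left out, and Gp5 from -0.33 to 0.0239. Against the control, with single libraries left out, Gp1ba lay between -0.0698 and 0.37 for HS3A8-high, and for HS3A8-low between -0.11 and 0.296, where Gp5 lay between -0.32 and 0.00117. In HS3A8-high against HS3A8-low, 451 genes and 3 members became 1305 and 5 with DESeq2, 1490 and 6 with voom, 1367 and 6 with the replicate block, 748 and 5 without replicate 3 of both groups, and 33 genes at an adjusted p under 0.01. Leaving out single libraries gave 0 to 439 genes and 0 to 4 members. For HS3A8-high against the control, 2 genes and 0 members became 138 and 3 with DESeq2, 100 and 4 with voom, 9 and 2 without a count filter, 32 and 2 with all 9 libraries in 1 fit, 0 genes without both replicates 3, 0 at the stricter threshold, and 0 to 5 genes and 0 to 1 members without single libraries. For HS3A8-low against the control, 0 genes and 0 members became 94 and 1 with DESeq2 and 287 and 3 with voom. The replicate numbers do not pair either fraction with the control (r of the same number from -0.346 to 0.0317), and the replicate block there gave 0 genes and 0 members in both comparisons. Levels per kb of Itga2b, Cd9 and, in the control, Pear1 moved with the length of the longest transcript by more than the SD. Depth limits Gp6 and Clec1b, with 5 and 17 counts in all, and the 2 genes with libraries at 0.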
